A study of Caenorhabditis elegans with 18 samples.

Results

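The centre of the Caenorhabditis elegans X chromosome was taken by position as all windows of 500 bp on X whose start lies between 6137001 and 12480000, a stretch of 6.34 Mb. It held 12686 of the 200538 windows of the table (6.33%) and 35.8% of the windows of X. Another 12274 windows of X lay to its left and 10478 to its right. No measured value entered this choice. The study profiled LEM-2 by chromatin immunoprecipitation and sequencing (IP), with input chromatin beside it, in early embryos kept at 20 degrees. The strains were met-2(n4256) III, set-25(n5021) III and N2 (Bristol), the wild type, and each gave 3 IP and 3 input libraries, which the series text calls biologically independent. The labels name 1 allele of 1 gene for each mutant strain, and no other allele or treatment. Every library came from many whole embryos, so contact in fewer nuclei and weaker contact in each nucleus cannot be told apart.

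The inner nuclear membrane holds LEM-2, so chromatin that precipitates with it lies at the edge of the nucleus. In worm embryos the outer parts of the autosomes are rich in repeats and in methylated histone H3 lysine 9 (H3K9) and are held at the periphery, whereas the gene-rich central parts lie further inside. MET-2, the worm homologue of SETDB1, makes mono- and dimethylated H3K9, and SET-25 makes trimethylated H3K9. The X chromosome differs from the autosomes in being bound by the dosage compensation complex in hermaphrodites. The comparisons address how LEM-2 contact of the X centre is distributed when either methyltransferase is mutated.

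Enrichment is given throughout as the log2 value of an IP library minus the mean log2 value of the 3 inputs of its strain, so 0 means that IP and input were equal. The 3 columns of each kind are named a, b and c as in the table. Libraries held between 8.73 M reads (met-2 IP b) and 64.45 M reads (set-25 input a), and the median window of the X centre held between 36 and 324 reads. A total of 3 short intervals outside X were missing from some inputs and present in the others, and they did not all follow the strain labels. The interval from 13287501 to 13289000 on chromosome III was missing in all 3 inputs labelled set-25 and in no other. The interval from 8376501 to 8377500 on III was missing in the 3 met-2 inputs, and also in inputs b and c labelled set-25, which held 0 reads there against 684 in set-25 input a. Columns b and c labelled set-25 thus lacked both chromosome III intervals, IP and input alike, with at most 1 read in either, whereas set-25 column a lacked only the first. The interval from 1646001 to 1647500 on V was missing in inputs b and c labelled set-25 and in N2 input a, which held 0 reads against 471 and 541 in N2 inputs b and c. No window of the X centre behaved in this way. Results are given for the strains as labelled, and also without N2 column a and the set-25 columns b and c. The latter leaves column a as the only set-25 library, so its set-25 values cannot be told apart from an effect of that library.

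LEM-2 was depleted over the X centre in all 3 strains, and most in N2. Mean enrichment over its windows was -0.12, -0.23 and -0.30 in met-2 columns a, b and c. It was -0.38, -0.25 and -0.22 in the columns labelled set-25, and -0.67, -0.49 and -0.54 in N2. All 3 met-2 and all 3 set-25 libraries lay above all 3 N2 libraries, while the met-2 and set-25 libraries overlapped. The means were -0.22 ± 0.09 in met-2, -0.28 ± 0.08 in set-25 and -0.57 ± 0.10 in N2 (SD, n = 3 each), which correspond to IP to input ratios of 0.861, 0.821 and 0.676. The X centre was therefore higher by 0.35 in met-2 than in N2. It was higher by 0.28 in set-25 than in N2 and by 0.07 in met-2 than in set-25. Exact two-sided permutation tests gave p = 0.1 for both mutants against N2, the smallest value that 3 against 3 libraries allow, and p = 0.5 for met-2 against set-25. After Benjamini-Hochberg adjustment over the 15 comparisons of this kind, these became 0.214 and 0.625, so no comparison of library means passed 0.05. Without N2 column a and set-25 columns b and c, met-2 was higher than N2 by 0.27, set-25 was higher than N2 by 0.08 and met-2 was higher than set-25 by 0.19.

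**Figure D1:**
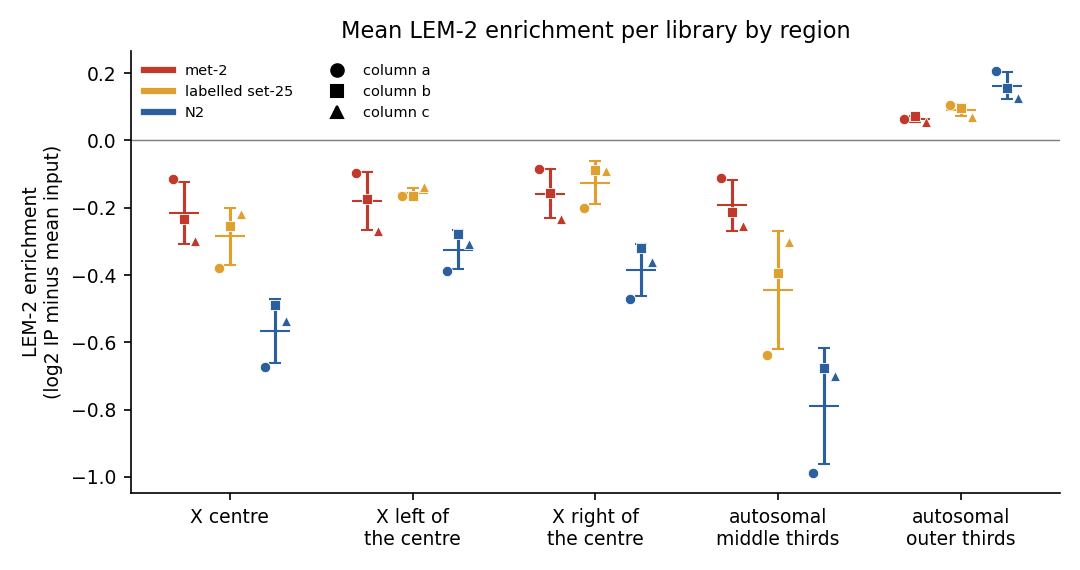
Mean LEM-2 enrichment (log2 IP minus mean strain input, vertical axis) of each IP library over the X centre, the rest of X and the autosomes, by strain, with the mean as a horizontal line and the SD as a bar. On the X centre the met-2 libraries lie between -0.12 and -0.30 and the set-25 libraries between -0.22 and -0.38, above the N2 libraries at -0.49 to -0.67.

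Every library is scaled to the same total, and the change of the X centre was read against that of the rest of the genome. The median 10-kb bin of all chromosomes was higher by 0.20 in met-2 and by 0.18 in set-25 than in N2. With each library centred on its own median, the X centre stood at -0.10, -0.18 and -0.22 in met-2, at -0.18, -0.17 and -0.15 in set-25, and at -0.34, -0.25 and -0.30 in N2. The differences from N2 were then 0.13 in both mutants, still with no overlap. In both mutants the X centre was thus higher than in N2 by more than the median bin was.

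Of the left, centre and right of X, the centre had the lowest mean in each strain, by the least in met-2. The X centre minus the rest of X was -0.02, -0.07 and -0.05 in met-2, -0.20, -0.13 and -0.10 in set-25, and -0.25, -0.19 and -0.20 in N2. All met-2 libraries were nearer to 0 than all others, while column a labelled set-25 lay within the N2 range. The contrast was smaller in size by 0.17 in met-2 than in N2 (means -0.05 ± 0.02 and -0.21 ± 0.03, SD, n = 3 each; exact permutation p = 0.1, adjusted 0.214). Set-25 and N2 overlapped, with a difference of 0.07 (exact permutation p = 0.2, adjusted 0.3; 0.05, 0.07 and 0.10 between columns of the same letter) that turned to -0.024 without N2 column a and set-25 columns b and c. The left and right of X stood at -0.18 ± 0.09 and -0.16 ± 0.07 in met-2, at -0.16 ± 0.02 and -0.13 ± 0.06 in set-25, and at -0.33 ± 0.06 and -0.38 ± 0.08 in N2 (SD, n = 3). In met-2 the X centre was higher than in N2 by 0.35, against 0.15 for the left of X and 0.23 for the right. The corresponding values for set-25 against N2 were 0.28, 0.17 and 0.26.

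The central of 3 equal parts of each of the 5 autosomes, 55032 windows in all, were taken as the regions most like the X centre. The X centre itself is not such an equal part of X, with 12274 windows of X to its left and 10478 to its right. It takes in the stretch from 11637001 to 12480000, the least depleted in N2, so differences from the autosomal centres depend in part on these boundaries. In met-2 the X centre was level with the mean of these autosomal centres, but not with each of them. Against -0.22 on the X centre in met-2, the centres of I, II and III stood lower, at -0.26, -0.24 and -0.29. Those of IV and V stood higher in met-2, at -0.16 and -0.07. In N2 the X centre was less depleted than each of the 5 autosomal centres. The X centre minus the autosomal centres was -0.01, -0.02 and -0.04 in met-2, 0.26, 0.14 and 0.08 in set-25, and 0.31, 0.19 and 0.17 in N2. The met-2 libraries lay below all others, and set-25 column a lay within the N2 range. The mean differed by -0.25 between met-2 and N2 and by -0.18 between met-2 and set-25, both with exact permutation p = 0.1 (adjusted 0.214). It differed by -0.06 between set-25 and N2 (exact permutation p = 0.4, adjusted 0.545; -0.06, -0.05 and -0.08 between columns of the same letter), which became 0.0595 without N2 column a and set-25 columns b and c. The autosomal centres averaged -0.19 ± 0.07 in met-2, -0.44 ± 0.17 in set-25 and -0.79 ± 0.17 in N2 (SD, n = 3). The gain of 0.35 on the X centre in met-2 over N2 was smaller than that of each autosomal centre, which was 0.67 on I, 0.63 on II, 0.68 on III, 0.46 on IV and 0.58 on V. Between set-25 and N2 the X centre was higher by 0.28, against 0.41 on I, 0.37 on II, 0.34 on III, 0.30 on IV and 0.32 on V. The outer parts of the autosomes went the other way, lower than N2 by 0.10 in met-2 and by 0.07 in set-25 (means 0.06 ± 0.01 in met-2, 0.09 ± 0.02 in set-25 and 0.16 ± 0.04 in N2).

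The input chromatin of the X centre was alike in its values across strains. The input log2 level of the X centre minus that of all autosomes was 0.10, 0.07 and 0.02 in met-2 columns a, b and c, 0.10, 0.07 and 0.04 in set-25, and 0.11, 0.06 and 0.02 in N2. Column a was highest and column c lowest in each strain. The strain means, 0.065 in met-2, 0.065 in set-25 and 0.062 in N2, differed by at most 0.003 on the log2 scale (exact permutation p = 0.9 or 1). In shares of reads, the X centre took 6.31 to 6.65% of the met-2 inputs, 6.37 to 6.64% of the set-25 inputs and 6.32 to 6.69% of the N2 inputs. It took 6.04, 5.71 and 5.55% of the met-2 IP reads, 5.4, 5.71 and 5.8% of the set-25 IP reads, and 4.51, 4.97 and 4.9% of the N2 IP reads. The share in the IP was thus below that of the inputs in all 9 IP libraries, and lowest in N2.

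At the scale of 10 kb, on the deposited scale, many more bins of the X centre were depleted than enriched. The means of 634 bins lying wholly in the X centre were tested with limma together with the bins of all other chromosomes, 10029 in all, at a Benjamini-Hochberg adjusted p under 0.05. In met-2, 15 bins were enriched over input and 316 depleted, which is 2.37 and 49.8% of the X centre, against 22.4 and 30% of all bins (52.3% in either direction). In set-25, 41 were enriched and 379 depleted, 6.47 and 59.8%, against 29 and 43.7% of all bins (72.7% in either direction). In N2, 23 were enriched and 522 depleted, 3.63 and 82.3%, against 32.3 and 53.5% of all bins (85.8% in either direction). The count in met-2 rested on its columns b and c: 196 bins passed in either direction without column b and 111 without column c, against 331 with all libraries. On median-centred values 24 bins were enriched and 298 depleted in met-2, 112 and 296 in set-25, and 91 and 412 in N2, so the enriched bins of N2 and set-25 depend on the scaling. Relative to each library's autosomal centres the balance turned in 2 strains, with 73 bins higher in IP and 163 lower in met-2, 336 and 111 in set-25, and 347 and 123 in N2. Of all 10029 bins, 3463 were then higher and 1505 lower in met-2, 5986 and 1697 in set-25, and 6644 and 1817 in N2. The turn was thus not particular to the X centre. Counted without a test, 135, 93 and 114 bins stood above input in met-2 columns a, b and c, 93, 158 and 152 in set-25, and 66, 59 and 43 in N2.

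The X centre was not evenly depleted but rose and sank along its length, in the same places in each strain. Averaged over segments of 500 kb from its left boundary, the lowest stretches were the segment from 7137001 to 7637000 and the segment from 10137001 to 10637000. The segment from 7137001 to 7637000 stood at -0.24, -0.41 and -0.60 in met-2, at -0.71, -0.67 and -0.55 in set-25, and at -1.12, -0.80 and -0.88 in N2. The segment from 10137001 to 10637000 had means of -0.44 ± 0.17 in met-2, -0.56 ± 0.06 in set-25 and -0.90 ± 0.18 in N2 (SD, n = 3). In both troughs, every N2 library lay below every met-2 and set-25 library.

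Between the troughs and at the right end lay stretches nearer to input level than the troughs were. From 8637001 to 9137000 the means were -0.10 ± 0.06 in met-2, -0.09 ± 0.13 in set-25 and -0.34 ± 0.05 in N2. From 9137001 to 9637000 they were -0.10 ± 0.05 in met-2, -0.08 ± 0.10 in set-25 and -0.34 ± 0.04 in N2. The highest segment in 8 of the 9 libraries ran from 11637001 to 12137000. It stood at 0.00, -0.05 and -0.03 in met-2, at -0.02, 0.02 and 0.00 in set-25, and at -0.16, -0.15 and -0.19 in N2. In N2 column a, the exception, the last segment from 12137001 to 12480000 was higher. The last segment stood at -0.01, -0.09 and -0.09 in met-2, at -0.03, -0.04 and -0.05 in set-25, and at -0.15, -0.17 and -0.21 in N2. All 9 libraries were below input there, those of N2 the furthest.

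The difference between the highest and the lowest segment was 0.26, 0.41 and 0.57 in met-2 columns a, b and c, 0.69, 0.70 and 0.55 in set-25, and 0.97, 0.65 and 0.69 in N2. All met-2 libraries were below all N2 libraries, and met-2 column c overlapped with set-25. The boundaries of the X centre did not mark steps of one kind. Just outside its left boundary, the adjoining 500 kb stood at -0.37 ± 0.16 in met-2, -0.45 ± 0.12 in set-25 and -0.81 ± 0.18 in N2. These values were lower than those of the first 500 kb inside, at -0.19 ± 0.08, -0.25 ± 0.12 and -0.55 ± 0.10 in met-2, set-25 and N2. At the right boundary, the last 500 kb inside stood at -0.09 ± 0.05 in met-2, -0.09 ± 0.01 in set-25 and -0.24 ± 0.02 in N2, and the next 500 kb outside at -0.06 ± 0.04, -0.12 ± 0.10 and -0.36 ± 0.05 in met-2, set-25 and N2 (SD, n = 3).

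**Figure D2:**
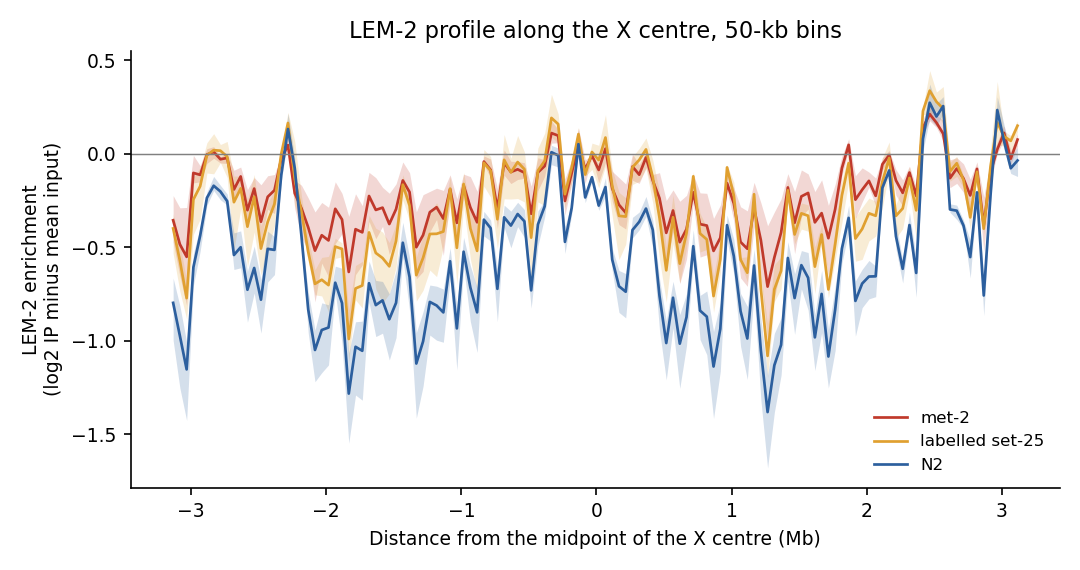
LEM-2 enrichment (log2 IP minus mean strain input) of 126 bins of 50 kb along the X centre, by distance from its midpoint in Mb. Lines are strain means, and the shading runs from the lowest to the highest of 3 libraries. The strains share peaks and troughs, and the N2 line drops furthest in the troughs, while near the right end the lines come together.

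The same peaks and troughs appeared at 10 kb. Over the 634 bins, Pearson's r between strain means was 0.936 for met-2 and N2, 0.959 for set-25 and N2, and 0.947 for met-2 and set-25. These bins share their base composition and mappability, and neighbours were alike (r of 0.70 to 0.86 between adjacent bins within a library, 0.25 to 0.39 at 100 kb and 0.14 to 0.22 at 500 kb), so the r values are descriptive. The shape was thus shared, while its height differed. The SD over the bins of a library was 0.14, 0.22 and 0.31 in met-2, 0.37, 0.34 and 0.29 in set-25, and 0.50, 0.36 and 0.37 in N2. All met-2 libraries were more even than all N2 libraries, by 0.18 on average (exact permutation p = 0.1, adjusted 0.214). With the input of the same column letter in place of the mean input, the difference was -0.18. The libraries then no longer separated fully (exact permutation p = 0.2). Column c of met-2 lay within the set-25 range, and set-25 column a within the N2 range (both exact permutation p = 0.2, adjusted 0.3). The 3 met-2 libraries also differed among themselves, column a being the most even and column c the least.

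**Figure D3:**
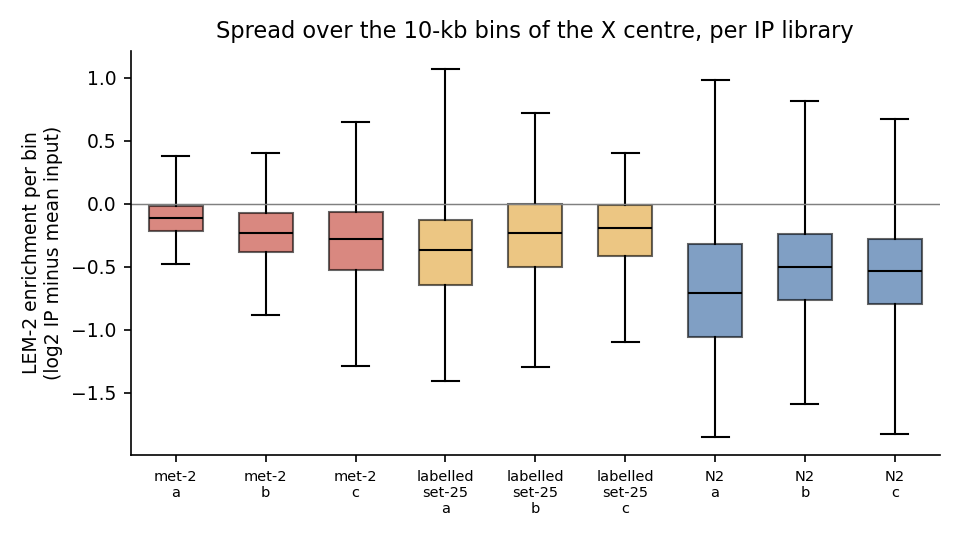
Enrichment of the 634 10-kb bins of the X centre in each IP library (log2), with the median as a line, the quartiles as a box and the lowest and highest bin as whiskers. The box of met-2 column a is the narrowest, that of met-2 column c is wider than that of set-25 column c, and those of N2 lie lowest, with medians of -0.71, -0.50 and -0.54 in N2 columns a, b and c.

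In met-2 embryos the X centre rose in most of its bins on the deposited scale, but not relative to the autosomal centres. By limma, 427 of 634 bins (67.4%) stood higher in met-2 than they did in N2, and 4 were lower (0.631%), where 45.6% of all bins were higher and 22.3% lower (68% in either direction). The median change over the X centre bins was 0.38, against 0.20 over all bins. For comparison, 44.1% of the bins of the rest of X, 90.5% of the autosomal centres and 21.1% of the outer parts of the autosomes were higher. The balance depends on the scale. On median-centred values 185 X centre bins were higher and 27 lower, against 2971 and 3437 of all 10029 bins. Relative to each library's autosomal centres none was higher and 280 were lower (317 bins in either direction at an unadjusted p under 0.05). On that scale 393 of all 10029 bins were higher and 5668 lower, so the turn was not particular to the X centre. Without N2 column a, 257 bins passed in either direction against 431 with all libraries. Without that column and set-25 columns b and c, 294 were higher and 3 lower.

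The number of bins that rose varied along the X centre. In the segment from 7637001 to 8137000, 49 of 50 bins were higher in met-2, as were 46 of 50 from 7137001 to 7637000 49 of 50 from 10637001 to 11137000 and 36 of 50 in the trough from 10137001 to 10637000. In the segments nearer to input level, 18 of 50 were higher from 8637001 to 9137000, 24 of 50 from 9137001 to 9637000, 18 of 50 from 11637001 to 12137000 and 9 of the last 34. The bin from 7820001 to 7830000 stood at -0.21, -0.35 and -0.62 in met-2, at -0.92, -0.72 and -0.59 in set-25, and at -1.29, -1.09 and -1.38 in N2. It was higher by 0.86 in met-2 against N2 (SE 0.15; limma, adjusted p = 0.000386). That its 3 met-2 values were above all N2 values was a condition for naming it. The bin from 10390001 to 10400000, another of the 5 largest rises, stood at -0.38, -0.46 and -0.90 in met-2, at -1.13, -1.09 and -0.94 in set-25, and at -1.60, -1.33 and -1.31 in N2, a rise of 0.83 (SE 0.16; limma, adjusted p = 0.000555). The bins from 11030001 to 11040000 and from 8280001 to 8290000 rose by 0.86 and 0.82 (limma, adjusted p = 0.00213 and 0.00149).

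The largest rise, 1.01 in the bin from 7350001 to 7360000, was also the least certain. It stood at -0.31, -0.21 and -1.29 in met-2, at -1.40, -0.89 and -0.99 in set-25, and at -1.43, -1.59 and -1.83 in N2. Column c of met-2 lay far below columns a and b, close to the highest N2 value. The rise had an SE of 0.37 and an adjusted p of 0.0233 in limma, which became 0.114 without met-2 column a, 0.168 without met-2 column b and 0.120 without N2 column c. This was the lowest bin of the X centre in N2. The next lowest in N2, at most 1 per 100 kb, were the bins starting at 11030001, 10570001, 7470001, 10390001 and 10180001, at -1.54, -1.52, -1.45, -1.41 and -1.36. The same 5 bins stood at -0.68, -0.80, -0.69, -0.58 and -0.71 in met-2 and at -1.15, -1.18, -1.11, -1.05 and -1.05 in set-25. They were chosen by their N2 means, so their differences from N2 are a description.

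The 4 bins that were lower in met-2 formed 2 neighbouring pairs near the right end, and both pairs were enriched in N2. The bin from 12280001 to 12290000 stood at 0.02, 0.04 and -0.03 in met-2, at 0.47, 0.06 and 0.12 in set-25, and at 0.44, 0.30 and 0.39 in N2. It fell by 0.37 (SE 0.11; limma, adjusted p = 0.00917), and passed in each of the 9 fits that left out 1 column. Its neighbour from 12270001 to 12280000 stood at 0.12, 0.07 and 0.15 in met-2, at 0.56, 0.22 and 0.23 in set-25, and at 0.48, 0.45 and 0.36 in N2 (a fall of 0.32; limma, adjusted p = 0.0160). The pair from 11870001 to 11890000 stood at 0.15 ± 0.09 and 0.11 ± 0.13 in met-2, at 0.26 ± 0.15 and 0.28 ± 0.16 in set-25, and at 0.42 ± 0.06 and 0.36 ± 0.02 in N2 (SD, n = 3). Its falls of 0.27 and 0.25 had adjusted p of 0.0291 and 0.0451 in limma. In limma, the call of the bin from 11870001 was lost without met-2 column a or b and without any single N2 column (adjusted p = 0.0545 to 0.127). In all 4 bins, set-25 column a lay within or above the N2 values, and set-25 columns b and c lay between the means of met-2 and N2. The bins from 12270001 and 11880001 hold windows with up to 10.8 and 23.7 times the median input. Without such windows they stood at 0.16 ± 0.06 and 0.16 ± 0.15 in met-2, at 0.40 ± 0.22 and 0.34 ± 0.15 in set-25, and at 0.49 ± 0.08 and 0.40 ± 0.05 in N2 (SD, n = 3), and 3 X centre bins were called lower in met-2 in place of 4.

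To see how the change depended on the starting level, bins were put into 5 classes by N2 column a against its own input, with boundaries that divide the X centre bins evenly, and read in the other libraries. N2 columns b and c against the mean of inputs b and c served as the comparison, so no library was used on both sides. N2 column a is also the N2 column that lacked the chromosome V interval, and classing by N2 column b or c was not done. In the lowest class, with 127 X centre bins, LEM-2 stood at -0.29, -0.50 and -0.72 in met-2 and at -0.94 and -0.996 in N2 columns b and c. In the highest class, also of 127 bins, it stood at 0.05, 0.03 and 0.07 in met-2 and at 0.03 and -0.01 in N2 columns b and c. From the lowest to the highest class, the X centre was higher in met-2 than in these N2 columns by 0.46, 0.36, 0.30, 0.20 and 0.04. The autosomal centres were higher by 0.62, 0.52, 0.43, 0.32 and 0.12 in the same classes, and the rest of X by 0.43, 0.32, 0.26 and 0.16, while its highest class was at -0.13. At a like N2 level, the X centre was thus higher by less than the autosomal centres in each of the 5 classes. The difference between the regions was not tested within classes. In the N2 columns themselves the classes of both regions were alike, at -0.97 on the X centre and -1.01 on the autosomal centres in the lowest class.

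The set-25 columns differed from each other by class. Columns b and c together were higher on the X centre than N2 columns b and c by 0.30, 0.31, 0.29, 0.25 and 0.12 from the lowest class to the highest. Column a was higher by 0.12, 0.12, 0.12, 0.10 and 0.08. On the autosomal centres, columns b and c were higher by 0.38, 0.38, 0.34, 0.27 and 0.11, and column a by -0.0045, 0.07, 0.08, 0.08 and 0.10. In the first 4 classes, columns b and c were thus further above N2 on the autosomal centres than on the X centre, and column a less far.

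**Figure D4:**
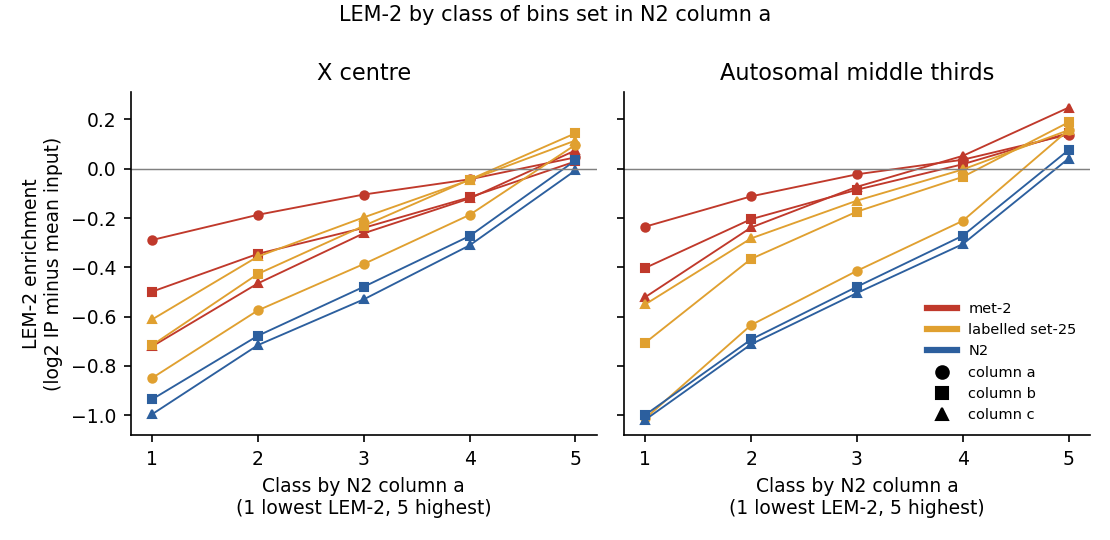
Mean LEM-2 enrichment (log2) of each library in 5 classes of 10-kb bins, ordered by the enrichment of N2 column a, for the X centre and for the autosomal centres. The lines of met-2 are flatter than those of N2 columns b and c and meet them in the highest class of the X centre, at 0.03 to 0.07 in met-2 and -0.01 to 0.03 in N2.

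The most enriched bin of the X centre ran from 11780001 to 11790000. It stood at 0.38, 0.40 and 0.65 in met-2, at 1.07, 0.72 and 0.37 in set-25, and at 0.98, 0.82 and 0.68 in N2. The met-2 libraries lay below the N2 libraries, and the set-25 libraries ranged from below all of them to above all of them. The difference between met-2 and N2, -0.35 (SE 0.22), did not pass (limma, adjusted p = 0.173). Some windows of this bin held up to 66.5 times the median input, and how reads that map to several places were treated is not given in the sources used here. With windows over 3 times the median input left out, 12 of its 20 windows remained, at 0.46 ± 0.12 in met-2, 0.69 ± 0.28 in set-25 and 0.75 ± 0.09 in N2 (SD, n = 3). The enrichment was thus also present in windows of ordinary input.

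The other bins highest in N2, at most 1 per 100 kb, were those starting at 12270001, 11880001, 7040001, 9170001 and 11450001. The bin from 7040001 to 7050000 stood at 0.17, -0.09 and 0.13 in met-2, at 0.28, 0.07 and 0.18 in set-25, and at 0.29, 0.15 and 0.25 in N2. The bin from 9170001 to 9180000 stood at 0.13, 0.23 and 0.14 in met-2, at 0.24, 0.28 and 0.36 in set-25, and at 0.31, 0.22 and 0.15 in N2. The bin from 11450001 to 11460000 stood at 0.06, 0.01 and 0.11 in met-2, at 0.19, 0.22 and 0.18 in set-25, and at 0.20, 0.20 and 0.19 in N2. None of these 3 passed between met-2 and N2 (limma, adjusted p = 0.180 to 0.546), and their windows had at most 1.21 times the median input.

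**Figure D5:**
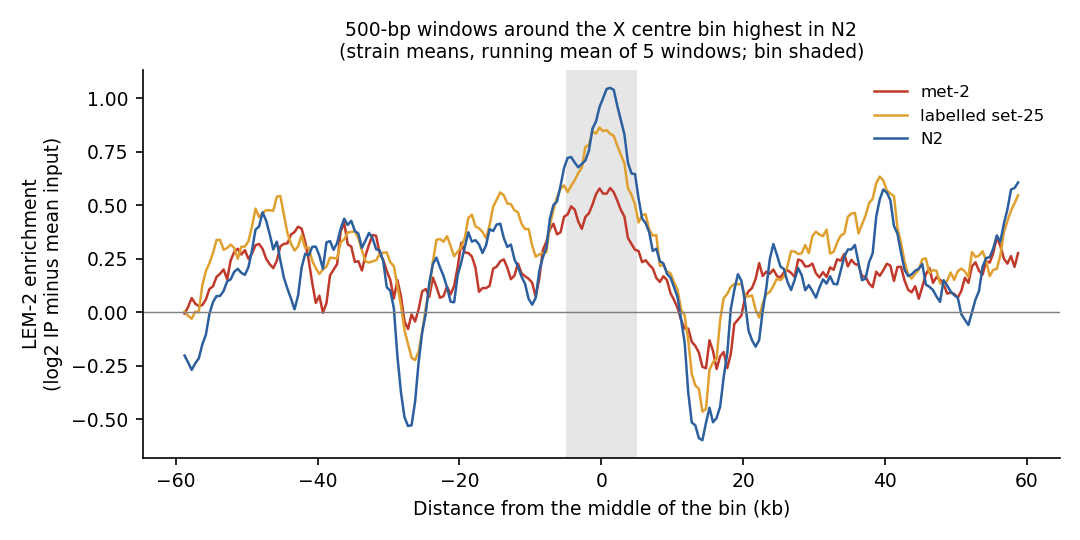
LEM-2 enrichment (log2, strain means smoothed over 5 windows of 500 bp) by distance in kb from the middle of the bin highest in N2, which is shaded. The N2 and set-25 lines peak in the bin above the met-2 line, and the N2 line also drops lowest in the dips on either side.

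On the deposited scale, enriched bins gathered in the last 2 segments, which hold 50 and 34 of the 634 X centre bins. Of the bins called enriched, 12 of 15 in met-2, 23 of 41 in set-25 and 17 of 23 in N2 lay there. Where the enriched bins lay on median-centred values, 112 in set-25 and 91 in N2, was not examined. The longest enriched run in met-2 and a run of equal length in set-25 covered the 5 bins from 11810001 to 11860000, with 0.17, 0.17 and 0.27 in met-2, 0.34, 0.37 and 0.28 in set-25, and 0.32, 0.23 and 0.22 in N2. The run from 12270001 to 12300000, 1 of 4 runs of 3 bins in N2, stood at 0.07, 0.06 and 0.04 in met-2, at 0.39, 0.09 and 0.15 in set-25, and at 0.38, 0.32 and 0.32 in N2. In the run from 11810001 the met-2 values lay below all set-25 values and overlapped with those of N2. In the run from 12270001 the met-2 values were near input. The run from 11810001 was chosen by its calls in met-2 and set-25, and that from 12270001 by its calls in N2. Their met-2 levels are therefore a description. The 4 longest runs of set-25 also included those from 8950001 to 8980000, with 0.14 ± 0.06 in met-2, 0.23 ± 0.11 in set-25 and 0.04 ± 0.06 in N2, and from 9120001 to 9150000, with 0.09 ± 0.05 in met-2, 0.23 ± 0.06 in set-25 and 0.05 ± 0.06 in N2 (SD, n = 3).

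At the resolution of single windows, the changes in met-2 were fewer. Of the 12686 windows, 896 (7.06%) stood higher in met-2 than they did in N2 and 7 were lower (0.0552%), against 9.89 and 5.71% of all windows and 15.6% in either direction (limma, adjusted p under 0.05), so the share of higher windows was below that of the genome. This count of 903 rested on single libraries: it was 102 without met-2 column a, 81 without met-2 column b, 1333 without met-2 column c, 113 without N2 column a, 555 without N2 column b and 535 without set-25 column b. It was 46 without N2 column a and set-25 columns b and c, and 242 on median-centred values. Of the 7 lower windows, the one from 8166501 to 8167000 had the lowest adjusted p. It stood at -0.02, -0.03 and -0.19 in met-2, at 0.37, 0.27 and 0.10 in set-25, and at 0.75, 0.73 and 0.52 in N2, a fall of 0.75 (SE 0.17; limma, adjusted p = 0.0106). The window from 9176501 to 9177000 stood at 0.09, -0.08 and 0.03 in met-2, at 0.55, 0.44 and 0.17 in set-25, and at 0.72, 0.73 and 0.63 in N2 (limma, adjusted p = 0.0422). In both, the set-25 libraries lay between met-2 and N2, with column a the highest of them. Another window, from 9607001 to 9607500, chosen after its values were seen, was level in the strains at 0.72, 1.01 and 1.29 in met-2, 0.85, 1.09 and 1.05 in set-25, and 1.01, 0.999 and 1.08 in N2.

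In the libraries labelled set-25, 215 of 634 X centre bins were higher than in N2 (33.9%) and none was lower, against 19.8 and 10.6% of all bins, 30.4% in either direction (limma, adjusted p under 0.05; 386 bins at an unadjusted p under 0.05 in either direction, and 234 higher and 0 lower by limma-voom). The count depended on which libraries entered. It was 378 without set-25 column a, 1 without set-25 column b, 1 without set-25 column c, 2 without N2 column a and 89 without met-2 column b, which entered through the shared estimate of the spread. Without N2 column a and set-25 columns b and c, which leaves set-25 column a alone, the median change over the X centre bins was 0.08. On median-centred values 27 were higher and 1 lower, and relative to the autosomal centres 2 were higher and 5 lower. Of all 10029 bins, 402 were higher and 1439 lower on median-centred values, and 22 and 1810 relative to the autosomal centres. No window passed (1657 at an unadjusted p under 0.05, 2 by limma-voom), where 0.0015% of all windows did.

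The largest rise in set-25 was in the bin from 7990001 to 8000000. It stood at -0.80, -0.55 and -0.41 in set-25 and at -1.51, -1.06 and -1.03 in N2, a rise of 0.61 (SE 0.16; limma, adjusted p = 0.0199), with -0.39, -0.40 and -0.68 in met-2. The bin from 10050001 to 10060000 stood at -0.35, -0.27 and -0.12 in set-25 and at -0.89, -0.72 and -0.76 in N2, a rise of 0.54 (SE 0.12; limma, adjusted p = 0.00647), with -0.17, -0.22 and -0.48 in met-2. The bins starting at 8560001, 9940001 and 6140001 rose by 0.57, 0.54 and 0.53 (limma, adjusted p = 0.0125, 0.0285 and 0.0160). In all 5 bins column a was the lowest of the set-25 libraries and also of the N2 libraries. All 5 calls were lost without set-25 column c, and 4 of them without set-25 column b and 4 without N2 column a. Since both comparisons use the same N2 libraries, the set-25 and met-2 values of a bin are not independent.

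Between met-2 and set-25, no bin and no window of the X centre passed (limma, adjusted p under 0.05; 23 bins and 416 windows at an unadjusted p under 0.05; 4 bins and 0 windows by limma-voom), where 0.389% of all bins were higher and 0.0299% lower, 0.419% in either direction. Without N2 column a and set-25 columns b and c, met-2 was higher by a median of 0.20 over the X centre bins and 0.13 over all bins. That fit leaves set-25 column a alone and assumes that it varies like the other groups. The difference therefore cannot be told apart from an effect of 1 library. Without met-2 column c, 4 bins passed. The bin from 7820001 to 7830000 stood above set-25 by 0.35 in met-2 (SE 0.15; limma, adjusted p = 0.198), and the median difference over the X centre bins was 0.05.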

How the data were processed

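Per the labels and the series text, LEM-2 IP and input chromatin of early embryos was sequenced in pairs, without size selection. The deposited table holds log2 values for 200538 windows of 500 bp in 18 columns, and its values show that the authors took log2 of scaled reads plus 2, with each library scaled to 35.17 M. Whole reads were recovered for 100.0% of values within 0.01. For the aligner, the counter and the treatment of duplicates and repeats, no detail is given in the sources used here. The submitters' processing notes name ce10, but the chromosome ends of the table differ from that build (X ends at 17718854), so coordinates are as in the table, no gene was assigned and no sequence is shown.

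Columns carry letters and not the replicate numbers of the labels. Deviations of libraries sharing a letter correlated from -0.53 to 0.65 between IPs and from -0.36 to 0.83 between inputs, and no label ties a letter to a batch, so the libraries were not paired over the 3 strains. The IPs of set-25 and N2 alone had positive values for every letter (0.607, 0.190 and 0.649), but their inputs b did not (-0.357). Within groups, pairs differed by more than sampling noise (chi-square per degree of freedom 6.71 to 86.5). Since 1 input mean serves all 3 enrichments of a strain, these are partly dependent, and the spread between inputs is not in their SD.

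Windows were averaged over bins of 10 kb, of which 634 lie wholly in the X centre, leaving 6 of its windows in no such bin. Limma (version 3.58.1, under R 4.3.3), with a mean-variance trend, 6 group coefficients, 18 libraries and 12 residual degrees of freedom, tested all 10029 bins and all windows, adjusted by Benjamini-Hochberg at 0.05. Library means were compared by exact two-sided permutation tests, adjusted over 15 comparisons. Bins named are, at most 1 per 100 kb, the 6 highest and 6 lowest in N2, and for each comparison the 5 largest rises and falls that passed and did not overlap between strains. The 4 longest enriched runs of each strain were also named. Of the 7 windows lower in met-2, 2 were named after their values were seen. The limma step was tested on simulated bins with independent errors, unlike the real bins, whose neighbours were alike. That test is not used as support for any result here. Alternatives were median centring, values relative to the autosomal centres, a log2 constant of 0.5, a filter on windows (under 10 mean input reads or over 3 times the median input), 50-kb bins, limma-voom on recovered reads, the input of the same letter, other boundaries, and leaving out libraries. All other steps used Python 3.11.15 (pandas 2.3.3, numpy 2.4.6, matplotlib 3.10.9, scipy 1.17.1). The members, lists, tests and levels were chosen with earlier results of these data known.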

Additional observations from a re-analysis of the deposited data

How the results depend on the processing

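Of 192 recomputed comparisons of library means, 181 kept their direction and 11 reversed. None could pass 0.05 with so few libraries. Of 141 recomputed counts in either direction, 113 stayed within 1.5 times the value reported, but the split of some turned: relative to the autosomal centres, IP against input gave 336 higher and 111 lower bins in set-25 (41 and 379 as deposited) and 347 and 123 in N2 (23 and 522 as deposited). Over all bins the split turned as well, to 5986 higher and 1697 lower in set-25 and 6644 and 1817 in N2. On median-centred values, the X centre difference between met-2 and set-25 became -0.0018, 212 bins passed for met-2 against N2 and 28 for set-25 against N2, and 242 and 2 windows passed in these comparisons. Relative to the autosomal centres, 280 bins passed for met-2 against N2 and 7 for set-25 against N2. Without N2 column a and set-25 columns b and c, set-25 against N2 became -0.024 for the X centre minus the rest of X and 0.0595 for the X centre minus the autosomal centres, with 0 bins, while 56 bins passed for met-2 against set-25 and 46 windows for met-2 against N2. With 50-kb bins, of which the X centre holds 126, 87 passed for set-25 against N2. Limma-voom called 4 bins for met-2 against set-25 and 2 windows for set-25 against N2. With the column letter as a replicate block, chosen after seeing the data, 4 windows passed for set-25 against N2, 432 bins for met-2 against N2 and 205 bins for set-25 against N2. No paired analysis by the replicate numbers of the labels was possible because the columns carry letters in their place.

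Leaving out 1 column at a time, the counts of bins ran from 111 to 347 for met-2 IP against input, from 257 to 459 for met-2 against N2, from 1 to 378 for set-25 against N2 and from 0 to 4 for met-2 against set-25. The counts of windows ran from 81 to 1333 for met-2 against N2 and from 0 to 16 for set-25 against N2. The input difference changed sign, from -0.017 to 0.025 for met-2 against N2, from -0.016 to 0.025 for set-25 against N2 and from -0.018 to 0.020 for met-2 against set-25, all near 0. Of 120 recomputed tests of named bins, 92 kept their call, 28 no longer passed and none reversed. Apart from fewer libraries where these were left out, the cause was not tested. The shallowest library, met-2 IP b with a median of 36 reads per X centre window, limits what single windows can show.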

Other observations

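Windows of very high input, over 3 times the median, numbered 52 on the X centre and fell into 9 blocks, and the blocks did not behave alike. The block from 10361001 to 10369000, the longest with 16 windows, stood at -0.40 in met-2, -0.41 in set-25 and -0.43 in N2, within a trough of the X centre. The block from 11442001 to 11444000 was enriched in each strain, at 0.32 in met-2, 0.44 in set-25 and 0.40 in N2. The block from 7077501 to 7079500, with up to 50.3 times the median input, was depleted in each, at -0.61 in met-2, -0.61 in set-25 and -0.30 in N2. These values rest on sequences of unknown copy number and were not tested.

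Input was at or under 5% of the median window in at least 1 input in 3 single windows. They start at 6326501, 6329501 and 6332001, all within 6 kb near the left boundary. In the 9 inputs, these windows held 3.85 to 22.5%, 2.3 to 9.09% and 1.84 to 10.1% of the median window, in that order.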
